A study of Mus musculus with 6 samples.

Results

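The 10 genes described here were the D-type cyclins Ccnd1, Ccnd2 and Ccnd3, the cyclin-dependent kinase (CDK) inhibitors Cdkn1a, Cdkn1b, Cdkn2a, Cdkn2b and Cdkn2c, the tumor suppressor Trp53 and its inhibitor Mdm2. They were chosen by gene symbol from a table of 19616 genes. RNA was sequenced from jejunal intestinal epithelial cells (IEC), the absorptive and secretory cells that line the small intestine, of 3 control mice, given as wildtype, and 3 villin-Cre Hdac1-/-; Hdac2-/- mice, which lack the histone deacetylases Hdac1 and Hdac2 in these cells (Hdac1/2-deleted). All mice were 3 months old and of a mixed C57BL/6J, 129SV and CD1 background, and floxed alleles were deleted by a Cre recombinase that the villin promoter expresses in the intestinal epithelium, so other cells of the tissue keep both genes. The comparison addressed how loss of both deacetylases alters transcript levels in the epithelium. Each library was taken to be 1 mouse, which the library names do not state. The control libraries are named C1, C3 and C3-3, and the Hdac1/2-deleted libraries H1, H5 and H9, as in the labels.

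In the cell cycle, D cyclins bind the kinases Cdk4 and Cdk6, which phosphorylate the retinoblastoma protein and release E2F factors so that cells pass from G1 into S phase. The INK4 inhibitors (Cdkn2a, Cdkn2b, Cdkn2c) bind Cdk4 and Cdk6 directly, while the Cip/Kip inhibitors (Cdkn1a, Cdkn1b) bind cyclin-CDK complexes. The transcription factor p53, encoded by Trp53, induces Cdkn1a and Mdm2, and the Mdm2 protein in turn marks p53 for degradation. In the small intestine some of these genes act at the boundary between dividing crypt cells and differentiated villus cells.

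Libraries held from 36111035 counts in H5 to 65902344 in C1, so that a floor of 3 counts lay between 0.0405 and 0.079 CPM (counts scaled to a common library size). Hdac1 decreased from 40.8 ± 7.32 CPM (SD, n = 3) in control IEC to 3.77 ± 1.15 CPM in Hdac1/2-deleted IEC. Hdac2 was 27.7 ± 4.71 CPM in control and 24.5 ± 2.70 CPM in Hdac1/2-deleted IEC with overlapping libraries, and gene counts do not tell whether the deleted exons were missing from these transcripts. The summed level of 8 epithelial markers was 12700 to 14600 CPM in control and 10200 to 12600 CPM in Hdac1/2-deleted libraries, without overlap. Of these markers 1 was increased (Krt18), and 2 were lower by adjusted p at less than 2-fold (Epcam, Krt20). The summed levels of 13 immune markers, 57.4 to 162 CPM in control and 47.6 to 92.3 CPM in Hdac1/2-deleted libraries, overlapped, with 2 markers increased (Cd4, Csf1r) and 2 decreased (Cd8a, Cd3g). The 3 smooth muscle markers decreased together, from a sum of 1.71 to 51.1 CPM in control libraries to 0.179 to 0.237 CPM in Hdac1/2-deleted libraries. The lowest control sum was that of C3-3, and Myh11 was at 0 in H5 and H9. Of 7 fibroblast markers, Dcn decreased, and the sum was 13.1 to 19 CPM in control and 9.43 to 12.9 CPM in Hdac1/2-deleted libraries. Sums over 4 endothelial and 2 nerve and glia markers overlapped between groups, at 1.62 to 2.78 and 1.86 to 3.46 CPM for endothelium, and 0.0941 to 0.483 and 0.342 to 0.486 CPM for nerve and glia. The part of these cells in the results below was not tested, and fewer cells of a type and less RNA per cell cannot be told apart in these bulk samples.

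All 10 genes had enough counts to be tested, among 15618 genes in all. Ccnd1, Ccnd2, Ccnd3 and Cdkn1a overlap annotated genes on the opposite strand. So do several genes named below, among them Cdk4, Cdkn1c, E2f3, Trp53bp1, Sirt1, Bid, Jdp2 and Fosl1. The strand setting of the counting was not given in the sources used here, although the library kit was directional. Calls of an increase or a decrease needed an adjusted p of at most 0.05 (quasi-likelihood test of edgeR, adjusted by Benjamini-Hochberg) together with a change of at least 2-fold. Cdkn2a was increased, and Cdkn1b and Cdkn2c were decreased. Of all tested genes 12.4% were called increased and 12.7% decreased, so that the members' 1 and 2 calls were close to the background. With the adjusted p alone, Ccnd3, Cdkn1a, Cdkn2a and Mdm2 were higher and Ccnd2, Cdkn1b, Cdkn2b and Cdkn2c were lower, whereas Ccnd1 and Trp53 did not pass. These 4 higher and 4 lower genes compare with 20.5% and 20.3% of all tested genes. In 8 of the 10 genes the libraries of the groups did not overlap, against 53.2% of all tested genes. The median log2 fold change (Hdac1/2-deleted minus control) was 0.28 over the 10 genes and -0.0081 over all tested genes. The 10 genes were chosen with earlier results of these data known, so these shares are descriptions and no test of the group.

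**Figure D1:**
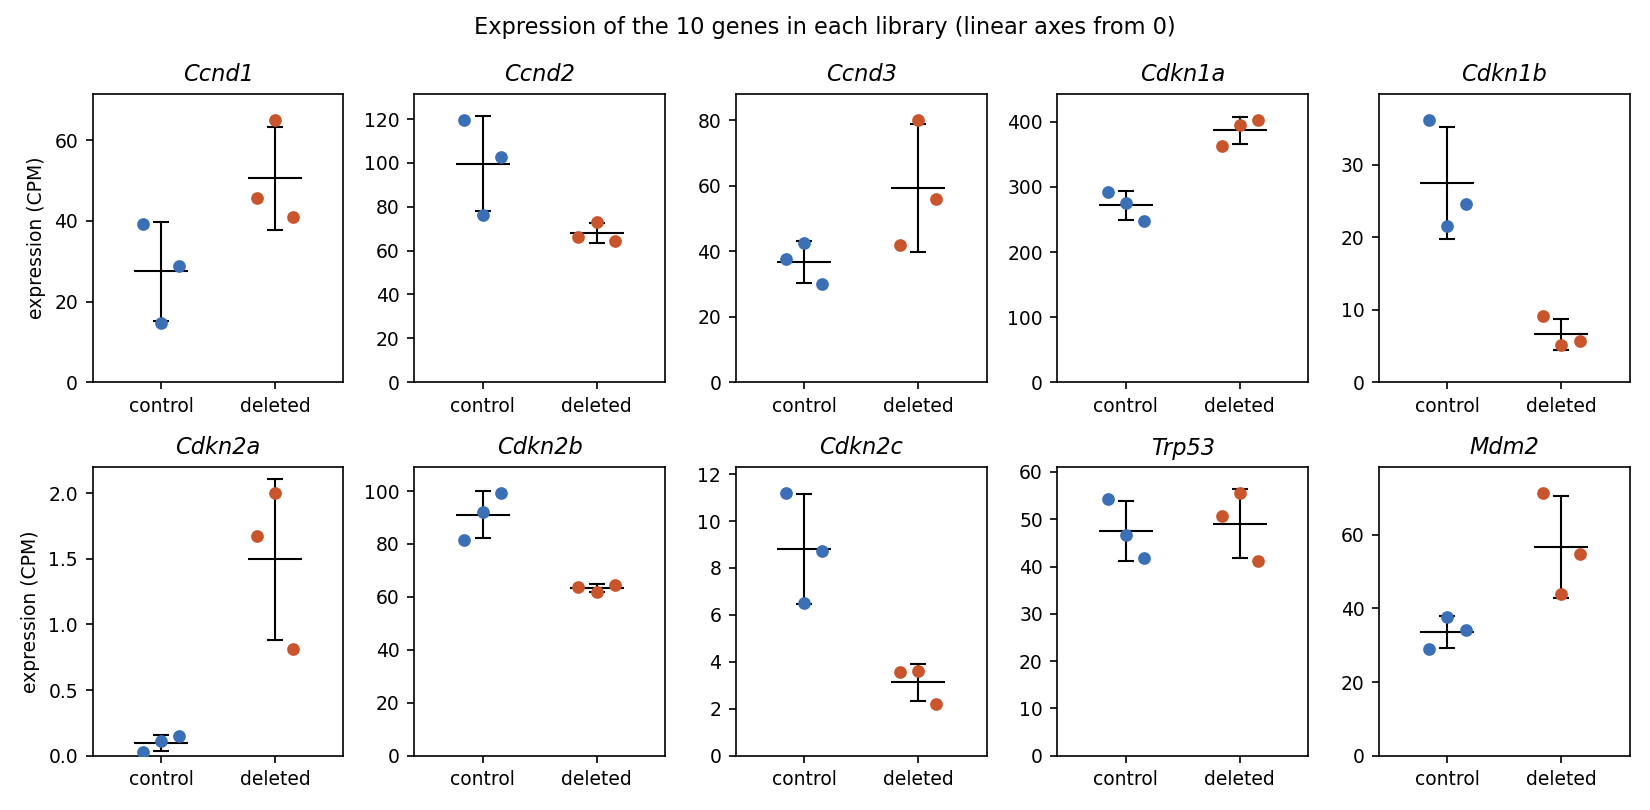
Expression of the 10 genes in CPM (y axes, linear and starting at 0) in the 3 control (blue) and 3 Hdac1/2-deleted (orange) libraries. Points are single libraries, and bars give the mean and SD. Libraries of both groups overlap for Ccnd3 and Trp53 and are apart for the other 8 genes.

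The largest change among the 10 genes was that of Cdkn2a, which encodes p16Ink4a and, from another first exon in a different reading frame, p19Arf, an inhibitor of Mdm2. It lies at chr4:89274471-89294653 on the minus strand (GRCm38, GENCODE M21). Both annotated transcripts share exon 2 (89276645-89276985), while their first exons lie at 89281986-89282192 (Ink4a) and 89294334-89294653 (Arf), so that a count per gene does not separate the 2 products. The sequences upstream of both first exons are given because either promoter could feed the count. They are taken from RefSeq (GRCm38.p6), read 5′ to 3′ on the minus strand, with GGGCGG on either strand in capitals.

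Cdkn2a, upstream of the Ink4a exon, chr4:89282193-89282442: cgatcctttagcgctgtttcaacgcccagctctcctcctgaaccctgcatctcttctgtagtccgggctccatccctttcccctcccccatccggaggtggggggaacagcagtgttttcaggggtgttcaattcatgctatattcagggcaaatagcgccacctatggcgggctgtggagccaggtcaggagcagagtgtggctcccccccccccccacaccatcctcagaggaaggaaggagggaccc
Cdkn2a, upstream of the Arf exon, chr4:89294654-89294869: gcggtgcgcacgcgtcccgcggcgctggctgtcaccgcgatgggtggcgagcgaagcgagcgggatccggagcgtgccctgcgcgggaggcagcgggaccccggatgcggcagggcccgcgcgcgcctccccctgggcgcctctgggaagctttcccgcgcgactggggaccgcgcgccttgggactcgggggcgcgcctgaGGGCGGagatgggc

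The printed stretch upstream of Ink4a held no GGGCGG. The stretch upstream of Arf held 35 CG dinucleotides in 216 bases with a GC content of 78.7%, and that upstream of Ink4a held 7 in 250 bases with a GC content of 60.0%. Cdkn2a had 2, 6 and 8 counts in C1, C3 and C3-3, and 124, 76 and 50 counts in H1, H5 and H9. In CPM, it was 0.030, 0.11 and 0.15 in control libraries, and 1.67, 2.00 and 0.81 in Hdac1/2-deleted libraries. All 3 control libraries were near the floor of 3 counts, and the lowest Hdac1/2-deleted library was still far above them. The log2 fold change was 3.96 ± 0.61 (SE; 95% interval 2.58 to 5.33; edgeR adjusted p = 0.00102). The 16 summed control counts against 250 gave a ratio of 15.7 after TMM scaling of library sizes (95% exact interval 9.51 to 28.0, for counting error only). Cdkn2a passed the filter on low counts only through the Hdac1/2-deleted group, and it was not testable when 10 counts were required in every library. In control IEC 97.6% of tested genes had a higher mean CPM than Cdkn2a, and in Hdac1/2-deleted IEC 72.4%.

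The next INK4 gene, Cdkn2b (p15Ink4b), lies upstream of Cdkn2a on the same strand, with 11645 bases between the 2 genes, at chr4:89306299-89311039. It moved in the opposite direction. Cdkn2b was 81.5, 92.2 and 99.2 CPM in control libraries and 63.8, 61.8 and 64.7 CPM in Hdac1/2-deleted libraries. Every Hdac1/2-deleted library was below every control library, with means of 90.9 ± 8.87 in control and 63.4 ± 1.48 CPM in Hdac1/2-deleted IEC. On the log2 scale the change was -0.52 ± 0.13 (95% interval -0.81 to -0.23; edgeR adjusted p = 0.0105), short of the 2-fold limit. With libraries scaled by their totals alone the value was -0.33 and the adjusted p 0.0689, and without C3-3 they were -0.44 and 0.0540. Mtap (chr4:89137122-89181081) and Klhl9 (chr4:88718292-88722465) are given as the listed neighbors that could be tested, named after their values were seen. Both lie on the side of Cdkn2a away from Cdkn2b, with Klhl9 farther off. Mtap (a methionine salvage enzyme) had a log2 fold change of 0.84 ± 0.34 (edgeR adjusted p = 0.0743) and Klhl9 (a ubiquitin ligase adaptor) -0.52 ± 0.21 (edgeR adjusted p = 0.0721). Neither passed the limit.

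Cdkn2c, which encodes p18Ink4c and lies apart from the other INK4 genes at chr4:109660876-109667189 on the minus strand, decreased. It was 11.2, 6.50 and 8.73 CPM in control libraries and 3.56, 3.61 and 2.21 CPM in Hdac1/2-deleted libraries. The highest Hdac1/2-deleted value was below the lowest control value. The log2 fold change was -1.50 ± 0.29 (95% interval -2.16 to -0.83; edgeR adjusted p = 0.00363). Thus the 3 INK4 members changed in both directions, and Cdkn2d (p19Ink4d), which is no member, had a log2 fold change of 0.55 ± 0.20 with an edgeR adjusted p of 0.0517.

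Among Cip/Kip inhibitors, Cdkn1b (p27Kip1), which restrains cyclin E and Cdk2 in quiescent cells, showed the largest decrease of the 10 genes. It lies at chr6:134920401-134925513 on the plus strand, with no other annotated gene overlapping it. Its upstream sequence is shown as that of the most decreased member (RefSeq, GRCm38.p6, plus strand, with GGGCGG in capitals).

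Cdkn1b, chr6:134920151-134920400: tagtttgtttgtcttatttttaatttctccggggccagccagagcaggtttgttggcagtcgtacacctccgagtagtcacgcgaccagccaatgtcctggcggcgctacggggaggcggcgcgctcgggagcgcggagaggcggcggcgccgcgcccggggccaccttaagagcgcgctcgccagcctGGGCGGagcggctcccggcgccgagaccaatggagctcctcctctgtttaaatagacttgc

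Expression of Cdkn1b was 36.2, 21.5 and 24.6 CPM in C1, C3 and C3-3, and 9.08, 5.08 and 5.74 CPM in H1, H5 and H9. The lowest control library was well above the highest Hdac1/2-deleted library. On the log2 scale the change was -2.04 ± 0.28 (95% interval -2.68 to -1.41; edgeR adjusted p = 0.000611).

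Cdkn1a (p21), the classical p53 target that halts the cycle after damage and is also found in differentiating villus cells, moved the other way. It lies at chr17:29090976-29100727 on the plus strand. The sequence before its upstream start site is printed because it holds 2 matches to the p53 half-site, in capitals (RefSeq, GRCm38.p6, plus strand). Such half-sites are bound by p53 in pairs, but the 2 marked matches were not shown to form a pair. The bases tgacatgttc, directly after GAACATGTCT, missed the searched pattern only at their first base and so are not marked.

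Cdkn1a, chr17:29090729-29090975: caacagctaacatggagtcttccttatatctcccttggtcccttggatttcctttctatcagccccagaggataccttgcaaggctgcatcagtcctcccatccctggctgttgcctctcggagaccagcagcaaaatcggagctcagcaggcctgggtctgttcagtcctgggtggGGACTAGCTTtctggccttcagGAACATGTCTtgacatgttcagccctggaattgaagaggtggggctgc

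Cdkn1a was 293, 275 and 248 CPM in control libraries and 363, 395 and 403 CPM in Hdac1/2-deleted libraries. The groups were apart and the spread within each was small, with means of 272 ± 22.4 and 387 ± 21.3 CPM. The log2 fold change of 0.51 ± 0.14 (95% interval 0.19 to 0.82; edgeR adjusted p = 0.0173) was below 2-fold. The adjusted p was 0.0778 without C3-3 and 0.0605 without H9, with log2 fold changes of 0.46 and 0.48. Of all tested genes, 4.13% had a higher mean CPM in control and 2.43% in Hdac1/2-deleted IEC.

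**Figure D2:**
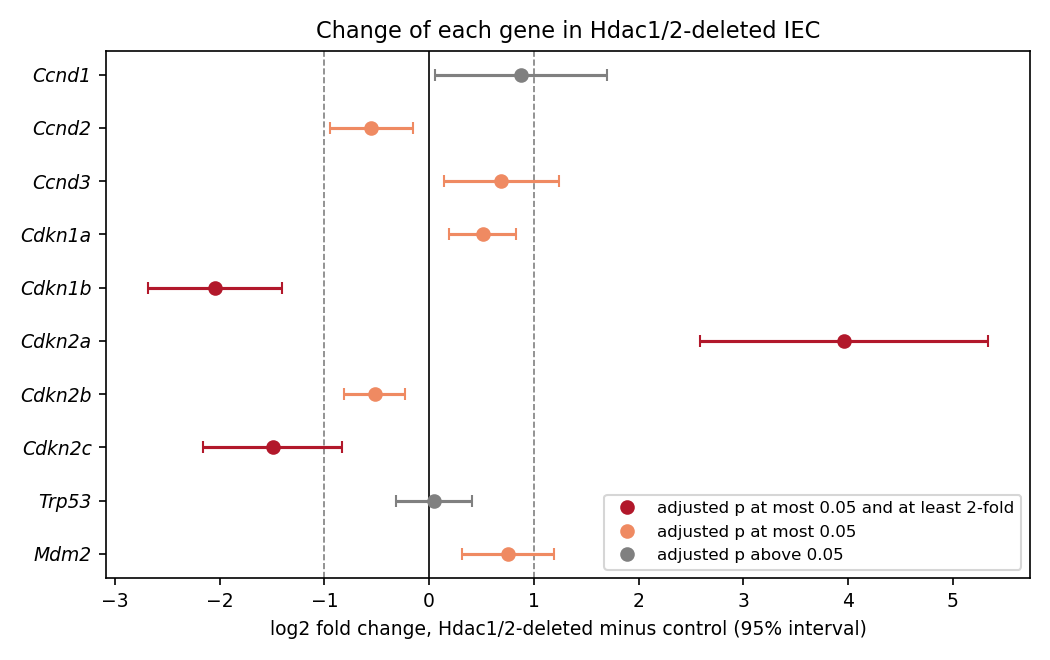
Log2 fold change (x axis, Hdac1/2-deleted minus control) of each gene with its 95% interval from edgeR, with dashed lines at 2-fold. Cdkn2a (3.96) lies beyond 2-fold on the right and Cdkn1b (-2.04) and Cdkn2c (-1.50) on the left, while Trp53 (0.046) lies near 0.

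The D cyclins, which activate Cdk4 and Cdk6 in response to growth signals, did not move as a group. Ccnd1, a known target of Wnt and mitogen signaling at chr7:144929931-144939925 (minus strand), was 39.1, 14.6 and 28.9 CPM in control libraries and 45.8, 65.1 and 41.0 CPM in Hdac1/2-deleted libraries. Each Hdac1/2-deleted library was above each control library, but control values were spread widely, with C3 lowest. Its log2 fold change of 0.88 ± 0.35 (95% interval 0.053 to 1.70) did not pass the limit (edgeR adjusted p = 0.0846). Ccnd1 passed in DESeq2 with a log2 fold change of 0.89 (adjusted p = 0.0216), and in edgeR without C1 with 1.23 (adjusted p = 0.0252).

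Ccnd2, at chr6:127125162-127152193 (minus strand), was 120.0, 76.5 and 103 CPM in control and 66.1, 73.3 and 64.6 CPM in Hdac1/2-deleted libraries. C3 among the control mice came close to H5 without overlap. The log2 fold change was -0.55 ± 0.17 (95% interval -0.95 to -0.16; edgeR adjusted p = 0.0318). The limit was missed when any of 5 single libraries was left out, with adjusted p values of 0.10, 0.0920, 0.0880, 0.0562 and 0.101 without C1, C3-3, H1, H5 and H9, with log2 fold changes of -0.70 to -0.39 over the omission of each of the 6 mice. With library totals alone it was -0.37 (adjusted p = 0.166).

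Ccnd3, at chr17:47505051-47599691 (plus strand), is the D cyclin known from lymphocyte development as well as from epithelia. It was 37.7, 42.6 and 30.0 CPM in control and 41.8, 80.1 and 55.9 CPM in Hdac1/2-deleted libraries. H1 lay within the control range, so the groups overlapped, and H5 was far above the rest. The log2 fold change was 0.69 ± 0.24 (95% interval 0.14 to 1.24; edgeR adjusted p = 0.0477). Its adjusted p lay above 0.05 without C1 (0.0885), C3 (0.0503), C3-3 (0.139), H5 (0.152) or H9 (0.0820), and the log2 fold change without H5 was 0.42.

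Because library scaling cancels when genes are compared within a library, the make-up of the D cyclins was computed as each gene's share of their summed CPM per kilobase of exon. The Ccnd2 share was 50.2%, 50.5% and 53.4% in control libraries and 32.7%, 25.3% and 31.3% in Hdac1/2-deleted libraries. The Ccnd1 share was 32.8%, 19.3% and 30.0% in control and 45.2%, 45.0% and 39.6% in Hdac1/2-deleted libraries. Neither share overlapped between groups. Per kilobase, Ccnd2 had the largest share in all 3 control libraries and Ccnd1 in all 3 Hdac1/2-deleted libraries. But this order depended on the division by exon length: in CPM, Ccnd2 was the largest in every library except H5, where Ccnd3 was. Exon lengths joined all annotated transcripts: 4709 bases from 3 for Ccnd1, 9409 from 8 for Ccnd2 and 8775 from 21 for Ccnd3. Which transcripts were expressed was not tested, so the order between genes is uncertain. As shares of summed CPM, Ccnd2 was 60.6 ± 3.21% in control and 38.9 ± 4.85% in Hdac1/2-deleted IEC and Ccnd1 16.2 ± 4.70% and 28.3 ± 2.56%, again without overlap. The exact two-sided permutation test gave p = 0.1 for both, the smallest value that 3 against 3 mice allow (0.15 after Benjamini-Hochberg adjustment over the 3 genes). The Ccnd3 share, 21.3 ± 7.71% in control and 27.0 ± 4.20% in Hdac1/2-deleted IEC, overlapped (exact p = 0.4, adjusted 0.4). Its difference of 5.70 percentage points was 9.64 without division by length, 3.54 without C1, 10.2 without C3 and 3.41 without C3-3. The summed D cyclin level per kilobase also overlapped, at 25.3, 16.1 and 20.5 CPM per kb in control and 21.5, 30.8 and 21.9 CPM per kb in Hdac1/2-deleted libraries.

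**Figure D3:**
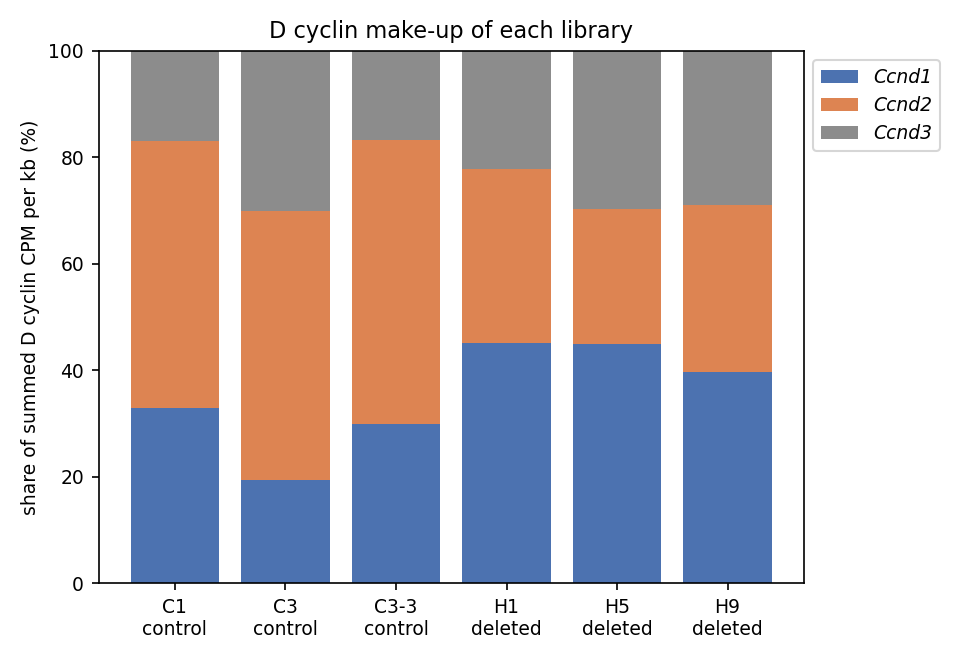
Share of each D cyclin in the summed D cyclin level (CPM per kb, y axis in %) in each of the 6 libraries (x axis). Ccnd2 makes up 50.2% to 53.4% in control libraries and 25.3% to 32.7% in Hdac1/2-deleted libraries.

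Genes with the most similar pattern were sought by Pearson correlation of log2 CPM over the 6 libraries among the 8329 genes whose mean log2 CPM reached 3. This is a description only, since the libraries share 1 group difference. Ccnd1 was nearest to 1110059E24Rik (r = 0.996), Rpl4 (0.996) and Rpl36 (0.994), the last 2 being ribosomal protein genes. For Ccnd2 the nearest genes were Tdg (0.989), Specc1l (0.987) and Tax1bp1 (0.982), and for Ccnd3 they were Lrp4 (0.989), Slc35c1 (0.983) and Polr2f (0.983). High values were common, as 174, 117 and 185 genes exceeded r = 0.9 for Ccnd1, Ccnd2 and Ccnd3.

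Transcripts of Trp53, at chr11:69580359-69591873 (plus strand), did not differ detectably. Trp53 was 54.2, 46.7 and 41.7 CPM in control and 50.6, 55.5 and 41.2 CPM in Hdac1/2-deleted libraries. The libraries were interleaved, and the log2 fold change was 0.046 ± 0.16 (95% interval -0.32 to 0.41; edgeR adjusted p = 0.843). Its sign turned without C3-3 (-0.030) or H5 (-0.045). RNA levels do not measure p53 protein, which is controlled largely by its degradation.

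Mdm2, at chr10:117688875-117710758 (minus strand), was higher in Hdac1/2-deleted IEC. It was 28.9, 37.6 and 34.2 CPM in control and 71.2, 43.8 and 54.7 CPM in Hdac1/2-deleted libraries. H5, the library nearest to control, was still above all control libraries. The log2 fold change was 0.75 ± 0.19 (95% interval 0.31 to 1.20; edgeR adjusted p = 0.0133), short of 2-fold. Mdm4, the partner of Mdm2 that blocks p53 transactivation, had a log2 fold change of -0.37 ± 0.17 (edgeR adjusted p = 0.111).

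Levels were compared between genes per kilobase of exon, and their order depended on this division. In mean CPM, Ccnd2 was above Cdkn2b, at 99.7 and 90.9 in control and 68.0 and 63.4 in Hdac1/2-deleted IEC, with overlapping libraries. In control IEC, Cdkn1a (76.5 CPM per kb) and Cdkn2b (65.4) were the highest with overlapping libraries, followed by Trp53 (11.8) and Ccnd2 (10.6), which overlapped too. Mdm2 (6.61), Cdkn1b (6.03), Ccnd1 (5.85), Ccnd3 (4.19) and Cdkn2c (3.28) formed a run in which each neighbor overlapped the next, and Cdkn2a (0.0821) was lowest. In Hdac1/2-deleted IEC, Cdkn1a (109) and Cdkn2b (45.6) were apart from each other and from the rest. Trp53 (12.1), Mdm2 (11.1) and Ccnd1 (10.8) then overlapped in turn, as did Ccnd2 (7.23) and Ccnd3 (6.76). The lowest 3 were Cdkn1b (1.46), Cdkn2a (1.28) and Cdkn2c (1.16), each overlapping the next.

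Ratios of these levels within a library show how the pairs separated, as a description with no test. Cdkn1a over Cdkn1b was 10.3, 16.4 and 12.9 in control libraries and 51.2, 99.5 and 90.1 in Hdac1/2-deleted libraries. Ccnd1 over Ccnd2 was 0.653, 0.382 and 0.561 in control and 1.38, 1.77 and 1.27 in Hdac1/2-deleted libraries. Both ratios were higher in every Hdac1/2-deleted library than in any control library. Cdkn2b over Cdkn2c was 14.1, 27.4 and 21.9 in control and 34.6, 33.1 and 56.5 in Hdac1/2-deleted libraries, again without overlap. Mdm2 over Trp53 was 0.425, 0.641 and 0.652 in control and 1.12, 0.629 and 1.06 in Hdac1/2-deleted libraries, with H5 inside the control range.

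Promoter windows of 300 bases (250 before and 50 after the start) were found in RefSeq for 8 of the 10 genes, 12 windows in all. Their median GC content was 61.1% and their median number of CG dinucleotides 20.5, against 52.7% and 7 over all 32851 windows. Letters of known motifs were searched on both strands, none of which contains another. GGGCGG, the core bound by Sp1, was found in 35.7% of all windows, and in at least 1 window of Ccnd3, Cdkn1a, Cdkn1b, Cdkn2a, Cdkn2b, Cdkn2c and Mdm2. The p53 half-site was present in 8.36% of all windows, with 2 matches in the upstream Cdkn1a window and 1 each in those of Mdm2 and Trp53. TGACGTCA, the cAMP response element, was found in 1.79% of windows and in that of Cdkn2b. The E-box CACGTG (7.15%) occurred in windows of Cdkn2c and Trp53, TATAAA (13.6%) in that of Trp53, and the E2F letters TTTCCCGC (1.07%) in that of Arf. No member window held the other E2F letters searched, TTTGGCGC (0.514%). These matches are descriptions of sequence, not sites of binding.

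Other genes of the pathway were taken from lists, whose shares are to be read against the 12.4% increased, 12.7% decreased, 20.5% higher and 20.3% lower by adjusted p alone among all tested genes. Of 35 tested genes of the G1 machinery, 4 (11.4%) were increased, and by adjusted p alone 6 (17.1%) were higher and 2 (5.71%) lower (median log2 fold change 0.18). The largest change was that of Cdkn1c, which encodes p57Kip2, the Cip/Kip inhibitor expressed from the maternal allele. Cdkn1c was 6.47, 12.2 and 10.03 CPM in control libraries and 148, 196 and 199.9 CPM in Hdac1/2-deleted libraries. The groups were far apart, with a log2 fold change of 4.24 ± 0.26 (edgeR adjusted p = 1.13e-05). Of the 3 Cip/Kip genes, Cdkn1c was thus called increased, Cdkn1a was higher within 2-fold and Cdkn1b was called decreased. E2f2 (1.95 ± 0.23, edgeR adjusted p = 0.000246), the CDK-binding Cks1b (1.62 ± 0.24, 0.00084) and E2f3 (1.19 ± 0.16, 0.000541) were also increased on the log2 scale. Cdk4 was higher in each Hdac1/2-deleted library, with a log2 fold change of 0.76 ± 0.16 (edgeR adjusted p = 0.00441), whereas Cdk6 (0.18 ± 0.30, 0.666) and Rb1 (0.11 ± 0.15, 0.595) did not pass.

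Among 24 tested regulators of p53, 2 (8.33%) were increased and 1 (4.17%) was decreased (median -0.10), with 4 (16.7%) higher and 3 (12.5%) lower by adjusted p alone. The increased genes were Trp53bp1, a mediator of double-strand break repair (log2 fold change 1.20 ± 0.18, edgeR adjusted p = 0.000856), and the damage kinase Atm (1.0 ± 0.23, 0.00717). Atm lay close to the 2-fold limit, and only 1 regulator was increased in edgeR without C3, C3-3, H1 or H9. The decreased gene was Sirt1, a deacetylase of p53 (-1.15 ± 0.23, edgeR adjusted p = 0.00383). Trp63 and Trp73, the relatives of Trp53, were on the list but were not found by symbol among the 19616 genes.

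The 41 tested p53 target genes, apart from Cdkn1a and Mdm2, held 6 increased (14.6%) and 7 decreased (17.1%) genes, both shares near those of all tested genes (median -0.14). By adjusted p alone, 7 (17.1%) were higher and 11 (26.8%) lower. Bid, a BH3-only apoptosis gene, was 8.18, 4.54 and 6.64 CPM in control and 60.7, 54.2 and 62.6 CPM in Hdac1/2-deleted libraries (log2 fold change 3.20 ± 0.22, edgeR adjusted p = 1.97e-05). Trp53i11 was also increased (2.36 ± 0.23, edgeR adjusted p = 0.000105). In contrast, the antiproliferative gene Btg2 decreased from 187, 90.7 and 77.8 CPM to 20.6, 18.0 and 17.3 CPM (-2.67 ± 0.33, edgeR adjusted p = 0.000623). Pmaip1, which encodes the BH3-only protein Noxa, decreased as well (-2.19 ± 0.50, edgeR adjusted p = 0.0131). In all 4 genes the groups did not overlap, and the 2 BH3-only genes moved in opposite directions.

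**Figure D4:**
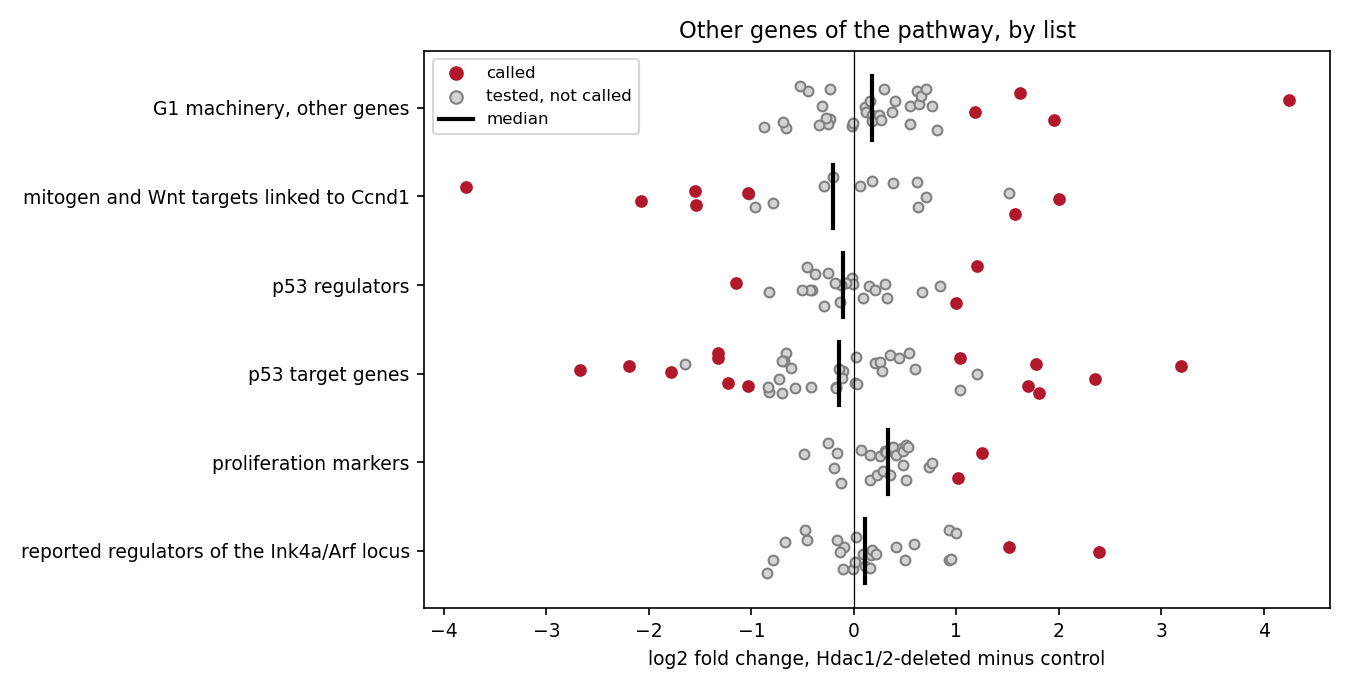
Log2 fold change (x axis, Hdac1/2-deleted minus control) of every tested gene in 6 lists of the pathway (y axis). Red points are called genes, grey points are not called, and black bars are medians, which lie between -0.21 and 0.33. The point farthest to the right is Cdkn1c (4.24).

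Of 27 tested genes reported to regulate the Ink4a/Arf locus, 2 (7.41%) were increased, and 6 (22.2%) were higher and 4 (14.8%) lower by adjusted p alone (median 0.11). The increased genes were Jdp2, an AP-1 family repressor (2.4 ± 0.29, edgeR adjusted p = 0.000281), and Id1, an inhibitor of helix-loop-helix factors (1.51 ± 0.20, 0.000419).

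Among 19 tested mitogen and Wnt targets linked to Ccnd1, 2 (10.5%) were increased and 5 (26.3%) decreased (median -0.21), with 3 (15.8%) higher and 5 (26.3%) lower by adjusted p alone. Sp5, a direct Wnt target, was 16.2, 32.8 and 18.8 CPM in control and 1.61, 1.16 and 2.10 CPM in Hdac1/2-deleted libraries (-3.79 ± 0.35, edgeR adjusted p = 7.59e-05). Mycn decreased from a lower level (-2.08 ± 0.43, edgeR adjusted p = 0.00462). The immediate early gene Egr1 (1.58 ± 0.22, edgeR adjusted p = 0.00057) and the AP-1 gene Fosl1 (2.00 ± 0.68, 0.0423) increased. Only 1 gene of this list was increased in edgeR without H1, H5 or H9, or with at least 10 counts in every library. Ccnd1 was above control in each Hdac1/2-deleted library and Sp5 was below control in each, but the list was mixed. Of its 19 tested genes, 9 (47.4%) had a positive log2 fold change, against 49.6% of all tested genes.

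Of 26 tested proliferation markers, 21 (80.8%) had a positive log2 fold change, against 49.6% of all tested genes (median 0.33). Of these markers 2 (7.69%) were increased and 4 (15.4%) were higher by adjusted p alone, shares below those of all tested genes. The other 22 did not pass the adjusted p. In only 2 of the 26 markers did the libraries of the groups not overlap, against 53.2% of all tested genes. The markers were measured in the same 6 libraries, so the 21 positive values are not independent observations. Rrm2, a subunit of ribonucleotide reductase, had a log2 fold change of 1.25 ± 0.37 (edgeR adjusted p = 0.0296) with overlapping groups, since H9 at 16.9 CPM lay below C1 at 17.8 CPM. Mcm2, part of the replicative helicase, had a log2 fold change of 1.02 ± 0.25 (edgeR adjusted p = 0.0100) without overlap. The number of increased markers was 0 in edgeR without C3, C3-3, H1 or H5.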

How the data were processed

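Jejunal IEC were enriched by the authors with EDTA, poly(A) RNA with an integrity number over 6.5 was made into directional libraries, and reads were aligned with STAR. The submitters' processing notes name STAR 2.4.0f1 and mm9, whereas the methods of the study name GRCm38; the counting tool and annotation were not given in the sources used here. The deposited table holds counts per gene for 6 libraries, used here, and a score per gene normalised by the authors, not used. Its columns of the authors' fold changes, mean levels and p-values were not used.

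Genes kept by filterByExpr were fitted with edgeR 4.0.16 (robust quasi-likelihood F-test, TMM scaling, prior count 0.125) on R 4.3.3, with Benjamini-Hochberg adjustment over all tested genes. CPM values use TMM-scaled library sizes. Intervals are 95%. Alternatives were RLE factors, library totals, DESeq2 1.42.0, limma 3.58.1 voom, other filters, a non-robust fit, prior count 2, no fold limit and omission of each mouse. Scripts were tested on simulated data. Positions came from GENCODE M21 by Ensembl ID (19526 of 19616 genes). Exon lengths joined all transcripts. The members and lists were chosen with earlier results of these data known. All members were named, with Cdkn1c, Cdkn2d, Cdk4, Cdk6, Rb1, Mdm4 and at most 4 called genes per list of largest absolute log2 fold change, for each D cyclin the 3 most correlated genes, and, outside this rule, Mtap and Klhl9. Ratios within libraries were added after seeing the data. Whether litters or cages were shared was not given, and the p-values treat the mice as independent.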

Additional observations from a re-analysis of the deposited data

How the results depend on the processing

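Cdkn1b, Cdkn2a, Cdkn2c and Mdm2 kept their direction and their side of the adjusted p limit under every alternative that gave them a value, and Cdkn2a had no value with at least 10 counts in every library. The causes of the changes below were not tested. With library totals alone, the median log2 fold change of all genes was 0.18 and 2463 genes were increased and 1538 decreased, against 1944 and 1990 with TMM. Under this scaling Ccnd2 was -0.37 (adjusted p = 0.166) and Cdkn2b -0.33 (adjusted p = 0.0689) in edgeR, 0 p53 regulators were decreased and 5 Ink4a/Arf regulators increased. Ccnd1 was 0.89 in DESeq2 (adjusted p = 0.0216). Ccnd3 was 0.64 in limma voom (adjusted p = 0.0669) and 0.69 in the non-robust edgeR fit (adjusted p = 0.0507). With at least 10 counts in every library, 0 members and 1 mitogen and Wnt target were increased. Without a filter, 1 neighbor of Cdkn2a was increased. Without the fold limit, 4 members were increased and 4 decreased, as were 2 decreased G1 genes, 4 increased and 3 decreased p53 regulators, 11 decreased p53 targets, 6 increased and 4 decreased Ink4a/Arf regulators and 4 increased proliferation markers.

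The D cyclin share differences (Hdac1/2-deleted minus control, percentage points) were 12.1 for Ccnd1, -21.7 for Ccnd2 and 9.64 for Ccnd3 without division by length, against 15.9, -21.6 and 5.70 with it, and over the omission of each mouse 11.9 to 18.6, -23.1 to -19.4 and 3.41 to 10.2.

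When each mouse was left out in turn, log2 fold changes ranged from 0.58 to 1.23 for Ccnd1, -0.70 to -0.39 for Ccnd2, 0.42 to 0.89 for Ccnd3, 0.46 to 0.57 for Cdkn1a, -0.59 to -0.44 for Cdkn2b and -0.045 to 0.16 for Trp53, which turned to -0.030 without C3-3 and -0.045 without H5. Between 1 and 2 members were increased, 2 of them without C1. Counts ranged from 0 to 1 decreased G1 genes, 1 to 2 increased p53 regulators, 2 to 4 increased and 0 to 1 decreased Ink4a/Arf regulators, 0 to 1 increased neighbors of Cdkn2a (1 without H9), 1 to 2 increased mitogen and Wnt targets and 0 to 3 increased proliferation markers. With these 3 mice a group, depth limits Cdkn2a in control IEC, where libraries held 2 to 8 counts. No paired analysis was possible because the mice of both groups share only 1 number in their names.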
